A study of Zea mays with 12 samples.

Results

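The ratio between reciprocal maize crosses was compared at 7 and at 10 days after pollination (DAP) in endosperm, the starchy tissue of the grain. The comparison uses 4 of the 12 libraries of the series. These are the 7 and 10 DAP endosperm of BxM, labelled B73XMo17, and of MxB, the reciprocal cross of the same inbred lines. By the usual convention the mother is written first, so BxM endosperm holds 2 copies of the B73 genome and 1 of the Mo17 genome, and MxB endosperm the reverse. The 8 other libraries are unpollinated kernels (0 DAP), kernels of 3 and 5 DAP and 15 DAP endosperm, used to place genes in developmental order and to follow their ratios. The labels name no treatment. The labels speak of 36 groups of plant material for RNA extraction, 12 samples in 3 replicates, and do not state whether these were pooled. Only 1 column of values per cross and age was used here. No difference below therefore has a replicate check, and no p-value is given.

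Levels are the authors' normalised signal, which is the count per 1000000 of the library total, scaled with edgeR's TMM factors. A ratio is log2 of (BxM signal + 1) over (MxB signal + 1), so positive values mean higher in BxM. Of 108342 gene models, 17591 had a mean signal of at least 5 over the 4 libraries after models with identical counts were counted once. Total counts were 59378582 to 70930121 per library. A count of 0 allows up to 3 counts, a signal of 0.0451 to 0.0614, which covers counting error only. The scaling left the crosses level at both ages, with a median ratio of -0.01 at 7 DAP and -0.02 at 10 DAP over all models that passed.

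Between these ages the maize endosperm moves from cell division and the forming of specialised outer domains to storage. Basal transfer cells and the cells around the embryo specialise first. The central cells then switch on starch synthesis and the zeins, the main storage proteins of the grain, under activators such as opaque2. A cross that is ahead in this programme would show higher levels of late genes. It would show lower levels of early genes only where these were already declining.

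A 2-fold difference between the crosses was found in 809 models (4.60%) at 7 DAP and in 1207 models (6.86%) at 10 DAP. In 298 models the crosses were 2-fold apart at both ages. Of these, 50 models (0.284%) turned to BxM, meaning that they were 2-fold higher in MxB at 7 DAP and 2-fold higher in BxM at 10 DAP. The opposite turn, to MxB, was seen in 94 models (0.534%). The difference held in the others, 83 models (0.472%) being higher in BxM at both ages and 71 models (0.404%) higher in MxB at both ages. Thus 21.3% of the 441 models that were 2-fold higher in BxM at 7 DAP, and 13.6% of the 368 that were 2-fold higher in MxB, were 2-fold higher in the other cross at 10 DAP. For all 298 models the exact 95% binomial interval of each ratio, which covers counting error only, did not include equality at either age. The same counts chose these models by a 2-fold difference, so the intervals add no support for the classes. Some models overlap and share reads. With near-identical models counted once (all 4 counts within 5%), the classes held 43, 90, 79 and 66 models in the same order. The counts depend on the pseudocount and the limit: with a pseudocount of 5 they were 22, 58, 20 and 18, and at 4-fold 0, 3, 5 and 4. Held models had low levels, with a median of the mean signal of 10.7 and 9.03 against 50.8 and 54.1 for the turned classes.

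**Figure D1:**
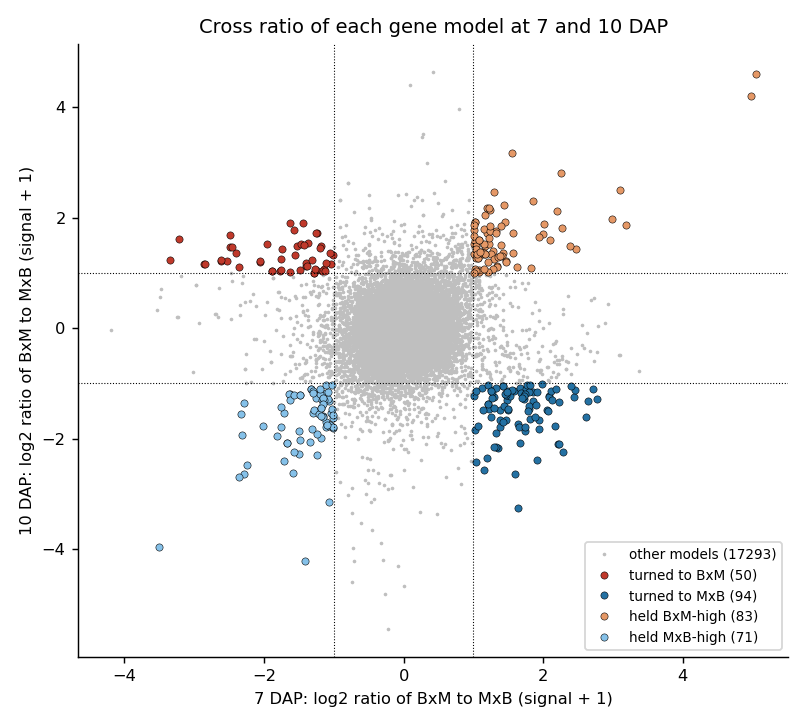
Each point is 1 of 17591 gene models, with its log2 ratio of BxM to MxB at 7 DAP on the x axis and at 10 DAP on the y axis. Dotted lines mark a 2-fold difference, and the 50 models that turned to BxM lie at the upper left and the 94 that turned to MxB at the lower right.

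Turns of this size were more frequent at this age step than at the steps on either side. Of the models that passed the same filter in each pair of ages, 0.819% turned either way between 7 and 10 DAP, against 0.134% between 5 and 7 DAP and 0.236% between 10 and 15 DAP. The step from 3 to 5 DAP in whole kernels gave a larger share of 1.76%. Held differences were fewest here, at 0.875% of models against 1.71% between 5 and 7 DAP and 2.19% between 10 and 15 DAP.

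Of 22 passed genes of starch synthesis, 16 were higher in MxB at 7 DAP and 16 higher in BxM at 10 DAP. The gene bt1, for the carrier that brings ADP-glucose into the plastid, had a signal of 14.8 in BxM and 174 in MxB at 7 DAP, and of 1820 in BxM and 1114 in MxB at 10 DAP. Its ratio went from -3.48 to 0.71. The large subunit of ADP-glucose pyrophosphorylase, sh2, had a signal of 10.8 in BxM and 216 in MxB at 7 DAP, and 2065 and 2104 at 10 DAP, so the widest gap of the list had closed. Both genes were near 0 in 5 DAP kernels of both crosses, at 0.306 and 0.571 for bt1 and at 1.61 and 1.59 for sh2.

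The small subunit of the same enzyme, bt2, had a signal of 2.75 in BxM and 22.7 in MxB at 7 DAP and of 879 and 765 at 10 DAP. For sh1, a sucrose synthase, the signal was 19 in BxM and 230 in MxB at 7 DAP, and 3600 and 2871 at 10 DAP. The granule-bound starch synthase gene wx1 had a signal of 0.804 in BxM and 7.90 in MxB at 7 DAP and of 399 and 206 at 10 DAP. In all 5 genes MxB was at least 2-fold higher at 7 DAP, and none was 2-fold apart at 10 DAP. For wx1, bt2 and sh1 the MxB signal at 7 DAP was 1.07, 1.5 and 1.70 times that of MxB kernels at 5 DAP (both plus 1). In BxM the same genes stood lower at 7 DAP than in kernels at 5 DAP, which had 5.84, 13 and 111.

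The list had 24 members. At 7 DAP 5 were 2-fold higher in MxB (background 2.09% of models) and 1 in BxM, with a median ratio of -0.31. At 10 DAP the median was 0.38. The sign changed from MxB to BxM in 12 genes and the other way in 2, against 22.9% and 24.0% of all models. The starch branching enzyme ae1 had 178 in BxM and 302 in MxB at 7 DAP, and 1048 and 783 at 10 DAP. The plastidial phosphorylase pho1 went from 113 and 223 to 600 and 446. Among the exceptions were AGP2, a further pyrophosphorylase subunit gene, and the sucrose synthase sus2. AGP2 was higher in BxM at both ages (ratios 1.02 and 0.62), and so was sus2 (0.47 and 1.29).

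Of 22 passed zein genes, 21 were higher in MxB at 7 DAP and in BxM at 10 DAP, against 22.9% of all models. The gene gz27, for the 27-kDa gamma-zein, had a signal of 344 in BxM and 1746 in MxB at 7 DAP and of 13220 and 9919 at 10 DAP. The 16-kDa gamma-zein gene gz16 had 3.82 and 26.1 at 7 DAP and 2483 and 894 at 10 DAP. The alpha-zein gene z1A1_5 had 5.42 and 38.5 at 7 DAP and 1002 and 428 at 10 DAP. The list had 27 models. At 7 DAP 20 were 2-fold higher in MxB (background 2.09%), with a median ratio of -2.13. At 10 DAP 16 were 2-fold higher in BxM (background 3.19%) and the median was 1.19. In 14 models the turn was 2-fold at both ages, against 0.284% of all models. The delta-zein gene dzs18 differed in direction, with 8.19 in BxM and 5.07 in MxB at 7 DAP and 815 and 127 at 10 DAP.

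Alpha-zein copies are near-identical, so reads may be split among them and single values are uncertain. A trace of zein RNA was also present outside the endosperm ages and differed between the crosses. The summed signal of the 22 models was 51.5 in BxM and 14.9 in MxB at 0 DAP, 62.9 and 99.6 at 3 DAP, and 3.88 and 90.8 at 5 DAP. For the 17 alpha-zein models the MxB signal at 7 DAP was only 1.27 to 3.21 times that of MxB at 5 DAP (both plus 1). The part of this trace in the 7 DAP ratio was not tested. For gz27 the same factor was 107, and for the starch gene bt1 it was 112. Counts behind the lowest zein values were few, with 2 in BxM and 82 in MxB at 7 DAP for z1C1_1.

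Among the other storage proteins, the legumin gene leg1 had 262 in BxM and 1138 in MxB at 7 DAP and 2123 and 1609 at 10 DAP. The globulin gene glb3 turned 2-fold, from 0.941 and 4.39 to 76.3 and 26.0. The gene lkrsdh1 for a lysine-degrading enzyme did not turn, with 17.2 and 4.93 at 7 DAP and 40.2 and 18.1 at 10 DAP, and was higher in BxM at both ages. Of 4 passed members, 3 were higher in MxB at 7 DAP and 4 higher in BxM at 10 DAP. Of all models 50.7% were higher in MxB at 7 DAP and 51.7% at 10 DAP.

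Of 10 passed genes for endosperm transcription factors, 6 were higher in MxB at 7 DAP and in BxM at 10 DAP, and none the reverse. Of all models 22.9% and 24.0% changed sign in these directions. Transcripts of o2, the bZIP activator of zein genes, had a signal of 1.02 in BxM and 3.07 in MxB at 7 DAP, from 67 and 204 counts, and of 140 and 55.4 at 10 DAP. The NAM-related gene NRP1, known to be expressed from the maternal copies, had 44.5 and 140 at 7 DAP and 985 and 486 at 10 DAP. Both were near 0 at 5 DAP in both crosses, at most 0.0929. The prolamin-box factor gene pbf1 (model GRMZM2G146283) had 3.76 and 10.1 at 7 DAP and 103 and 76.5 at 10 DAP. The paired aleurone regulators Nkd1 and Nkd2 had ratios of -0.65 and -0.67 at 7 DAP and of 0.57 and 0.62 at 10 DAP.

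Of the 10 passed, from 12 listed, 7 were higher in MxB at 7 DAP and 9 were higher in BxM at 10 DAP. The other pbf1 model, GRMZM2G146267, had ratios of 0.34 and 0.05, and ohp2, a bZIP gene related to o2, was higher in MxB at both ages (-0.16 and -0.52). The regulator gene fl3 was higher in BxM at both ages, with 8518 and 5290 at 7 DAP and 4447 and 2023 at 10 DAP. Opaque11, a basic helix-loop-helix regulator, differed little at 7 DAP, with 108 and 114, and had 381 and 268 at 10 DAP. The auxin synthesis gene TAR3, of the tryptophan aminotransferase family, turned 2-fold, from 3.08 and 8.23 to 157 and 55.3.

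Genes of the basal transfer layer, where sugars enter the endosperm, showed the opposite turn. Transcripts of bap2, which encodes a small secreted peptide, had a signal of 6812 in BxM and 2300 in MxB at 7 DAP and of 815 and 1121 at 10 DAP. BETL1, another small secreted protein of these cells, had 1498 and 936 at 7 DAP and 141 and 654 at 10 DAP. The gene bap-3a had 1329 and 425 at 7 DAP and 7.76 and 83.0 at 10 DAP, the largest turn of the class, with ratios of 1.64 and -3.26. The response regulator gene tcrr-1 had 220 and 31.4 at 7 DAP and 22.2 and 55.7 at 10 DAP.

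All 16 of the passed models, of 17 listed, were higher in BxM at 7 DAP and higher in MxB at 10 DAP. Of all models 24.0% changed sign in this direction. At 7 DAP 12 were 2-fold higher in BxM (background 2.51%), with a median ratio of 1.53. At 10 DAP 11 were 2-fold higher in MxB (background 3.67%), with a median of -1.38. In 7 the turn was 2-fold at both ages, against 0.534% of all models. In BxM all 16 had a lower signal at 10 DAP than at 7 DAP, with a median log2 change of -3.32. In MxB 12 did, with a median of -0.95. The summed signal of the 16 was 440 in BxM and 581 in MxB in whole kernels at 5 DAP. At 7 DAP it was 20284 and 7082. The sum thus rose up to 7 DAP in both crosses, so the 7 DAP ratio alone cannot show which cross was further along. The cell wall invertase mn1, which splits incoming sucrose, had 1378 in BxM and 246 in MxB at 7 DAP and 932 and 1288 at 10 DAP. At 7 DAP its MxB signal was below the 275 of MxB kernels at 5 DAP. It is also a member of the sugar uptake list, whose 8 passed genes had medians of 0.06 and -0.17, with 2 changing sign to MxB and 1 to BxM. As these are bulk tissues, fewer cells of a type and less RNA per cell cannot be told apart.

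The endosperm cells next to the embryo express the ESR genes, which encode small secreted proteins, and all 4 followed the transfer layer. The signal of esr1 was 500 in BxM and 208 in MxB at 7 DAP and 14.1 and 32.7 at 10 DAP. For esr2 it was 1153 and 497, then 42.4 and 87.5. In esr6 and ESR3 the direction was the same, with ratios of 1.48 and 0.98 at 7 DAP and of -0.51 and -0.88 at 10 DAP. In 5 DAP kernels the crosses were close for all 4 genes, for example at 30.3 and 34.6 for esr1, and at 15 DAP none exceeded 0.681 in either cross. The summed signal of the 4 rose from 79.7 in BxM and 92.9 in MxB at 5 DAP to 2491 and 1090 at 7 DAP.

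**Figure D2:**
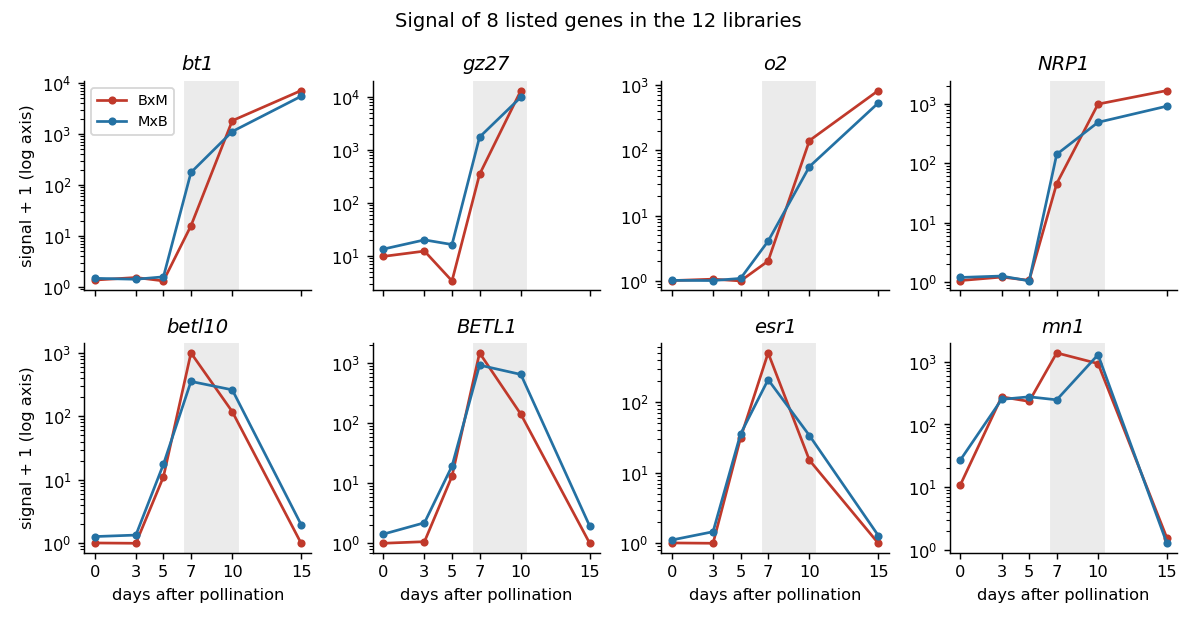
Signal plus 1 (log axis) of 8 listed genes in BxM (red) and MxB (blue) against days after pollination, 1 library per point, with 7 to 10 DAP shaded. For bt1, gz27, o2 and NRP1 the lines cross from MxB above to BxM above, and for betl10, BETL1, esr1 and mn1 they cross the other way. The 15 DAP value of gz27 is left out because it is listed at 0 in both crosses.

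To ask whether a cross was ahead, genes were ordered in time with libraries other than the 4 compared. Late genes were at least 4-fold higher in both 15 DAP endosperm libraries than in both 5 DAP kernel libraries, and early genes the reverse. An early gene can therefore still rise from 5 to 7 DAP, as esr1 did. The 5 DAP libraries are whole kernels, so these sets follow tissue as well as age. Of the 790 late models, 70.6% (Wilson 95% interval over models 67.4% to 73.7%) were higher in MxB at 7 DAP and 24.4% (21.6% to 27.5%) at 10 DAP, against 50.7% and 51.7% of all models. The intervals cover the number of models only, and models are not independent replicates. At 7 DAP 103 late models were 2-fold higher in MxB and 19 in BxM, and at 10 DAP the numbers were 14 and 110. The median ratio went from -0.24 to 0.31, and 52.8% of late models changed sign from MxB to BxM, against 22.9% of all models.

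Sets made from endosperm alone gave shares of late genes on the same side. Of 150 models that were 4-fold higher at 15 than at 10 DAP, 69.3% were higher in MxB at 7 DAP. Of 614 models that were 4-fold higher at 15 than at 7 DAP, 28.0% were higher in MxB at 10 DAP. Without the zein list and every model 2-fold higher in MxB at 5 DAP, the late share was 69.5% at 7 DAP and 24.4% at 10 DAP. Without any gene of the lists it was 69.6% and 25.3%. The share at 10 DAP was nearer that of all models for genes that came on sooner: of 748 models that were 4-fold higher in endosperm at 7 DAP than in kernels at 5 DAP, 46.4% were higher in MxB.

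The early genes mirrored this much less at 7 DAP than at 10 DAP. Of 1547 early models 46.2% (43.7% to 48.7%) were higher in MxB at 7 DAP, against 50.7% of all models, with a median ratio of 0.03. By 2-fold 128 (8.27%) were higher in BxM and 34 (2.20%) in MxB, against 2.51% and 2.09% of all models. At 10 DAP 72.3% (70.0% to 74.4%) were higher in MxB, with a median ratio of -0.33. With early genes taken from endosperm alone, the shares were 49.1% of 1153 models at 7 DAP and 61.4% of 1656 models at 10 DAP. The early share at 7 DAP lay on the other side of equality, at 55.4%, for 327 models that were 4-fold lower at 10 than at 5 DAP.

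A position between the 5 DAP kernels (0) and the 15 DAP endosperm (1) was computed for each model on the log2 scale. For late genes the median position at 7 DAP was 0.384 in BxM and 0.462 in MxB, and at 10 DAP it was 0.711 in BxM and 0.632 in MxB. MxB thus stood further along by late genes at 7 DAP and BxM at 10 DAP. For early genes the medians at 7 DAP were 0.394 and 0.403. At 10 DAP they were 0.444 in BxM and 0.335 in MxB. The MxB median was thus lower at 10 than at 7 DAP, so early genes did not place the ages of MxB in order. Their positions therefore cannot show which cross was further along. Within a library the positions were spread widely, with quartiles of late models at 0.195 and 0.690 in MxB at 7 DAP.

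**Figure D3:**
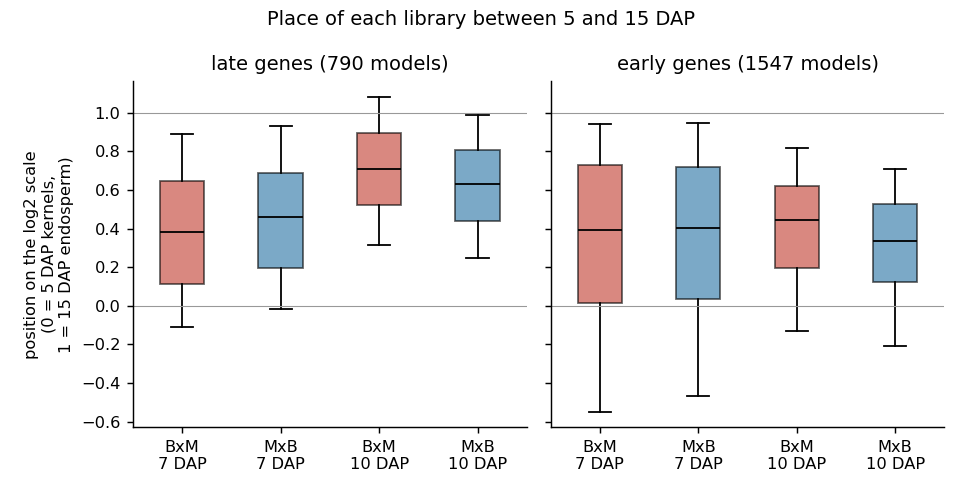
Position of each model between the mean 5 DAP kernel level (0) and the mean 15 DAP endosperm level (1) in the 4 libraries, for 790 late and 1547 early models. Boxes run between the quartiles with the median as a line, and whiskers run from the 10th to the 90th percentile. For late genes MxB lies above BxM at 7 DAP and below it at 10 DAP. The medians of early genes are close at 7 DAP and apart at 10 DAP.

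The turned classes differed in timing. Among the 39 models turned to BxM whose 15 DAP values could be read, 31 (79.5%) were late and none early, against 4.50% and 8.80% of all models. Among the 94 models turned to MxB, 42 (44.7%) were early and 2 late. Early means only a higher level at 5 than at 15 DAP, and some of these genes rose in between. From 5 to 7 DAP bap-3a went from 28.1 to 1329 in BxM and from 30.8 to 425 in MxB. In 41 of the 50 models turned to BxM both crosses had a higher signal at 10 than at 7 DAP, with median log2 changes of 5.38 in BxM and 2.72 in MxB. In the 94 turned to MxB the median change was -3.02 in BxM and 0.20 in MxB. Outside the lists, GRMZM2G071433 went from 2.03 in BxM and 15.9 in MxB to 553 and 171, and GRMZM2G136771 went the other way, from 539 and 110 to 21.0 and 103.

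Among other models turned to MxB with a symbol, expB7, a cell wall loosening expansin, had 167 in BxM and 54.7 in MxB at 7 DAP and 5.03 and 36.8 at 10 DAP. The dehydroascorbate reductase gene dhar2 had 110 and 53.4, then 22.8 and 84.1. None of the other passed cell wall genes turned 2-fold, of 20 passed from 35 listed. The median ratio of the list was -0.04 at 7 DAP and -0.13 at 10 DAP. Single genes ran from -2.65 to 4.39 at 10 DAP.

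The 28 genes of mitosis and replication had a median ratio of -0.02 at 7 DAP and -0.11 at 10 DAP. The replication clamp gene pcna1 had 127 in BxM and 132 in MxB at 7 DAP and 95.4 and 109 at 10 DAP. An exception was RNRL1, a large subunit of ribonucleotide reductase, with 2.88 and 6.30 at 7 DAP and 99.2 and 19.2 at 10 DAP. The 25 genes of protein folding in the endoplasmic reticulum had medians of 0.17 and -0.03, and none turned 2-fold. The 10 Polycomb genes had medians of 0.20 and 0.03.

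Small shifts in one direction were seen in other lists. Ribosomal protein genes were higher in MxB at 7 DAP in 33 of 35, against 50.7% of all models. Their median was -0.33 with none 2-fold apart, and it was 0.11 at 10 DAP. The 14 histone genes went from a median of -0.10 to 0.45. The 16 auxin response factor genes went the other way, from 0.14 to -0.43. Of these, 11 were higher in BxM at 7 DAP and in MxB at 10 DAP, against 24.0% of all models. The 3 clock genes gigz1a, gigz1b and PRR59 had a median of 0.26 at 7 DAP and -0.60 at 10 DAP. Clock genes can vary with the hour of harvest, and its part here was not tested.

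**Figure D4:**
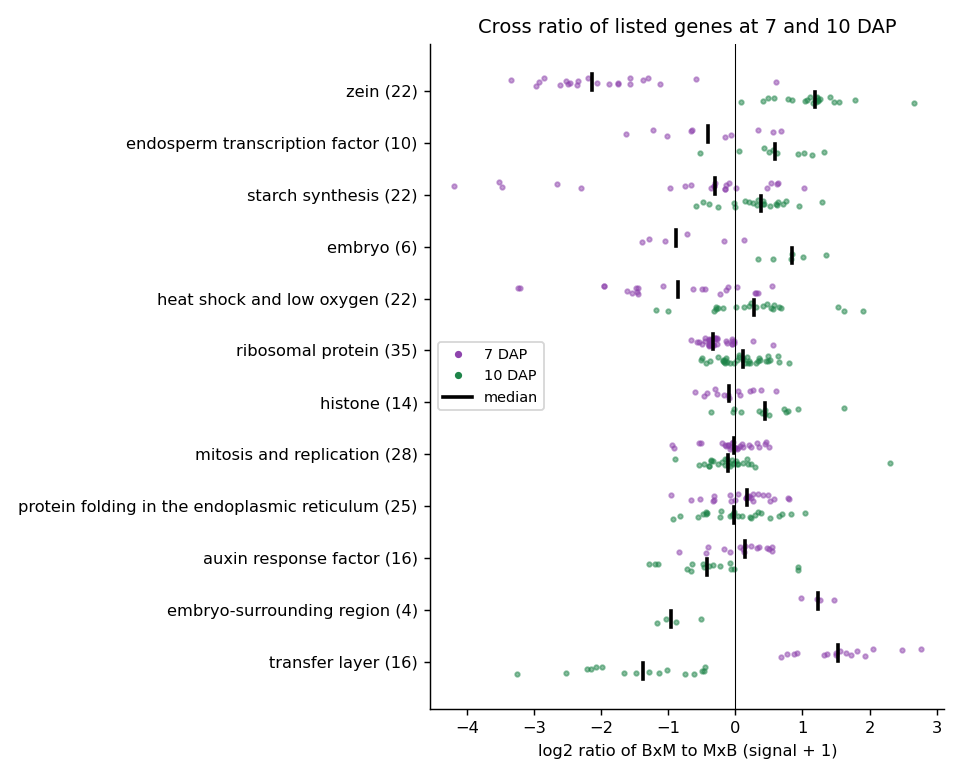
Log2 ratio of BxM to MxB at 7 DAP (purple) and 10 DAP (green) of each passed gene in 12 lists, with the number of genes in brackets and the median as a black bar. Zein medians lie at -2.13 and 1.19 and transfer layer medians at 1.53 and -1.38, while the mitosis and replication medians lie near 0 at both ages.

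Of 22 passed genes of heat shock and low oxygen, 13 were higher in MxB at 7 DAP and in BxM at 10 DAP, and 3 the reverse. Of all models 22.9% and 24.0% changed sign in these directions. At 7 DAP 11 of 22 were 2-fold higher in MxB (background 2.09%) and none in BxM (2.51%), with a median ratio of -0.86. At 10 DAP 3 were 2-fold higher in BxM (background 3.19%) and 1 in MxB (3.67%), with a median of 0.27. The 3 genes that turned 2-fold were all heat shock genes. The chaperone gene hsp101 had 6.92 in BxM and 29.8 in MxB at 7 DAP and 63.4 and 21.4 at 10 DAP. The gene hsp22 had 74.0 and 230, then 401 and 107. The gene hsp82 had 0.319 and 11.2, then 35.3 and 10.9, the largest turn to BxM of all models. Its BxM value at 7 DAP rests on 21 counts. It was higher in MxB at 5 DAP (2.92 and 7.37) and again at 15 DAP (22.4 and 289), so this turn did not last. The alcohol dehydrogenase genes, induced by low oxygen, did not turn to BxM. The signal of adh2 was 53.4 in BxM and 36.4 in MxB at 7 DAP and 68.8 and 138 at 10 DAP. For adh1 the ratio was -0.64 at 7 DAP and -0.18 at 10 DAP. The summed signal of the list was 6355 in BxM and 8314 in MxB at 7 DAP, and 12151 and 10405 at 10 DAP. The part of this difference in the turn of other genes was not tested.

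Markers of other tissues also differed. Of 12 embryo genes 6 passed, and their summed signal was 74.3 in BxM and 137 in MxB at 7 DAP and 761 and 359 at 10 DAP. The oleosin gene ole16 had 21.4 and 53.8, then 329 and 164. The gene PER1 had 21.7 and 46.1, then 313 and 122, and together with ole16 made up most of each sum. Oleosins are also made in aleurone, the outer endosperm layer, and the embryo gene wox2A had 18.6 and 21.1 at 7 DAP and 26.4 and 17.5 at 10 DAP. Of 11 genes of ovule and maternal tissue 6 passed. Their summed signal was 19 and 18.2 at 7 DAP and 174 and 283 at 10 DAP, against 1127 and 959 in whole kernels at 5 DAP. The floral MADS-box gene bde1 had 0.713 and 1.47 at 7 DAP and 12.7 and 69.4 at 10 DAP. For zag2, of the same family, they were 4.28 and 3.25, then 51.8 and 97.8. The list was split at 10 DAP, with ZMM2, ZAG1 and zmm16 higher in BxM (ratios 0.03, 0.02 and 0.38). MxB at 10 DAP, the library with the higher level of early genes, had the higher sum of these markers, and their part in that result was not tested.

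Some held differences were present before pollination. Unpollinated kernels hold no father's genome, so by the usual convention the 0 DAP ratio compares the mother lines, B73 and Mo17. Of the 83 models higher in BxM at both ages, 69 were also higher in BxM at 0 DAP, before pollination, and 55 were so by 2-fold. Of the 71 models higher in MxB at both ages, 44 were higher in MxB at 0 DAP and 24 by 2-fold. Of all models 52.4% were higher in MxB at 0 DAP, 4.00% by 2-fold, and 5.66% were 2-fold higher in BxM. A 2-fold difference in the same direction at all 6 ages was seen in 14 and 17 models. At 15 DAP 77 of 83 and 66 of 71 kept their direction. The models turned to MxB had a median ratio of -0.19 at 5 DAP and 0 at 15 DAP. At 5 DAP 63 were higher in MxB and 31 in BxM, and at 15 DAP 46 and 17. Of all models 44.5% were higher in MxB at 5 DAP and 56.5% at 15 DAP. Some of the class had almost no signal in either cross at 15 DAP, such as bap-3a at 0 in BxM and 0.143 in MxB. The models turned to BxM had a median of -0.83 at 5 DAP, with 41 of 50 higher in MxB, and of 0.63 at 15 DAP, with 26 of 39 higher in BxM.

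The 9-lipoxygenase gene lox12 had a signal of 11.5 in BxM and 1.25 in MxB at 7 DAP and of 8.53 and 2.55 at 10 DAP. The gene aba1 had 22.7 and 10.7 at 7 DAP and 54.3 and 13.6 at 10 DAP, after 861 and 112 in unpollinated kernels. On the MxB side, the aquaporin gene PIP2-4 had 29.9 and 68.3, then 4.77 and 16.5. The gene prp2 had 14.5 and 48.2, then 39.6 and 172, and GRMZM2G136868 had 0.091 and 11.3, then 0.0205 and 14.9. Count column headers name B73, and how well reads of Mo17 alleles mapped was not tested. The models GRMZM2G170309 and GRMZM5G871471 are listed at 0 in MxB at 7 DAP, against 2117 and 2001 counts in BxM.

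**Figure D5:**
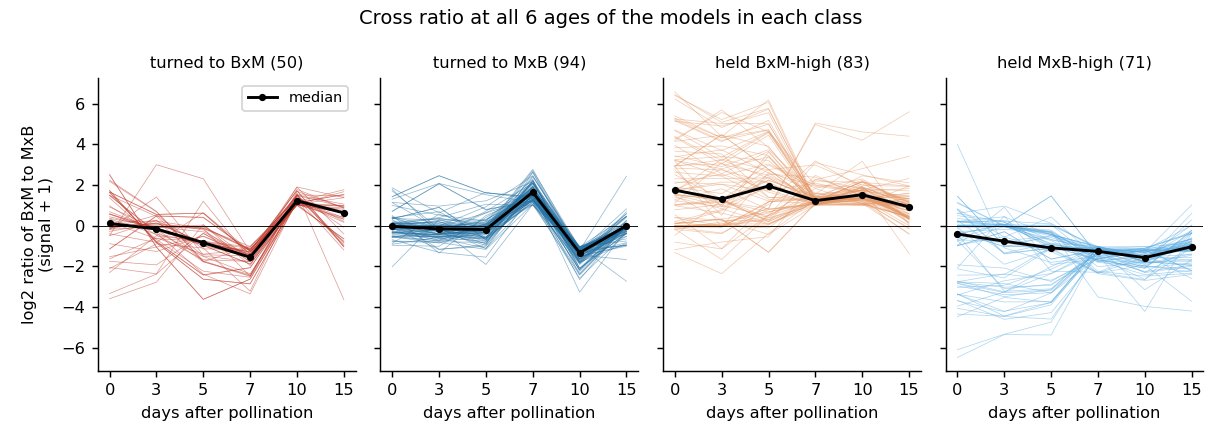
Log2 ratio of BxM to MxB at all 6 ages for each model of the 4 classes (thin lines) and their median (black). The turned classes swing in opposite directions between 7 and 10 DAP, which is how they were chosen, while held models keep their side at most other ages. Models listed at a doubtful 0 at 15 DAP are left out at that age.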

How the data were processed

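Endosperm RNA of both crosses was read from tables with 1 column per library. The authors deposited raw read counts per gene model and a normalised signal, which is the count per 1000000 of the library total times edgeR's TMM factor, per the note deposited with the tables. Bowtie and bedtools are named in the submitters' processing notes, and their versions and the genome build are not stated in the material used here. Ratios used the deposited signal plus a pseudocount of 1. Python 3.11.15 with pandas 2.3.3, numpy 2.4.6 and scipy 1.17.1 was used. The code for the class calls was run on simulated counts of models with a mean signal of at least 20. That simulation held an assumed spread, not one measured between plants. It therefore cannot show how reliable the 2-fold calls are.

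Gene symbols came from RefSeq (assembly Zm-B73-REFERENCE-NAM-5.0), where 18731 models matched. Families planned by description were filled by symbol, and promoter sequences were not analysed here. The members and the 28 gene lists (492 models) were chosen with earlier results of these data known. Named genes are list members and, in each class, the 6 models with the largest and smallest turn or the largest held ratio. A list median needed 3 passed models.

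In the 15 DAP columns 21 models abundant at 10 DAP are listed at 0, including sh1 and several zein genes, and they were left out of the late and early sets. The pseudocount, filter, fold, scaling, centring and definition of late genes were varied.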

Additional observations from a re-analysis of the deposited data

Results flagged for a closer look

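The ratio of the crosses differed between 7 and 10 DAP in several results, and none of these differences could be tested, since each cross and age has 1 library. The counts of turned models, 50 to BxM and 94 to MxB, are such results. The share of late genes higher in MxB was 70.6% at 7 DAP and 24.4% at 10 DAP, and that of early genes was 46.2% and 72.3%.

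Among the lists whose median ratio changed sign with at least 0.5 on each side, the median difference of the log2 ratios (10 DAP minus 7 DAP) was 3.02 for zein genes. It was 2.11 for other storage proteins and 1.63 for embryo genes. It was -2.92 for the transfer layer and -2.11 for the embryo-surrounding region.

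Zein signal was present in libraries taken before zein genes are known to be active. The summed signal was 51.5 in BxM at 0 DAP, 62.9 in BxM and 99.6 in MxB at 3 DAP, and 90.8 in MxB at 5 DAP.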

How the results depend on the processing

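No paired analysis was possible because each cross and age has 1 library. With a pseudocount of 5 the models turned to BxM and MxB numbered 22 and 58 and those held BxM-high and MxB-high 20 and 18. A 4-fold limit at both ages left 0, 3, 5 and 4 in the same order. Held counts were 163 and 135 at a mean signal of at least 1, 13 and 19 at 20, and 184 and 140 with no filter. The late share at 7 DAP was 74.1% at a mean signal of at least 20, 65.5% with no filter, and 65.1% with late genes at 2-fold. At 10 DAP it was 30.0% at 2-fold, 20.7% with median-of-ratios size factors, 28.0% with late genes from 7 against 15 DAP and 46.4% from 5 against 7 DAP. The early share at 7 DAP crossed 50%, to 55.4%, with early genes from 5 against 10 DAP. It was 49.8% with a pseudocount of 5, 49.2% with no filter and 49.1% from 10 against 15 DAP. At 10 DAP it was 74.7%, 69.2%, 69.3% (median-of-ratios), 67.9% and 75.7% (2-fold and 8-fold) and 61.4% (7 against 15 DAP). The median interaction was 2.14 for zein genes with a pseudocount of 5 and 0.48 for lipoxygenase and jasmonate genes with median-of-ratios size factors. The causes were not tested. Of 243 list medians under alternatives 8 changed sign, in 5 lists, with filter changes. For auxin synthesis and transport it went from 0.58 to -1.05 at a mean signal of at least 1 and to -0.29 with no filter. It went from -0.44 to 0.40 for water channels at 20, and from 0.32 to -0.23 for lipoxygenase and jasmonate with no filter. The others were glutathione S-transferase and Polycomb, near 0. The embryo median of 1.63 was 0.73 with no filter. The set changes without zein or listed genes and the counting of near-identical models once were chosen after seeing the data. With 1 library per cross and age, the spread between plants is unknown.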
